A study of Fundulus heteroclitus with 36 samples.

Results

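The brains examined came from embryos of the Atlantic killifish (Fundulus heteroclitus) of the New Bedford Harbor (NBH) population, which lives in a harbor polluted with polychlorinated biphenyls (PCBs). Embryos of the NBH PCB400 group had been kept in water with PCB126 at 400 ng/L from day 1 to day 7 after fertilisation, and NBH Control embryos were the group without PCB126. Whole brains were taken singly at 17 days, after the exposure had ended. The parents of both groups had eaten the salmon diet that is low in methylmercury. The groups were set by sample title and hold 12 of the series' 36 RNA sequencing libraries, 6 in each group. An NBH PCB40 group, given 40 ng/L over the same days and also 6 libraries, served for the test of dose. Shared parents or dishes within a group, and a solvent for the controls, are not given in the labels. The p-values of the gene and transcript tests measure only the spread between embryos. That spread was estimated over all 36 libraries, those of another population and of other treatments included.

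PCB126 is a dioxin-like PCB and a strong ligand of the aryl hydrocarbon receptor (AHR), a transcription factor held in the cytoplasm by Hsp90 and the cochaperone p23. Bound by ligand, AHR enters the nucleus, pairs with ARNT and switches on CYP1A, a cytochrome P450 that oxidises planar aromatic compounds, and AHRR, a repressor that competes with AHR for ARNT. Killifish of New Bedford Harbor are known for tolerance to dioxin-like PCBs and for weak CYP1A induction in comparison with fish from clean sites.

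Estimated reads were summed over the transcripts of each RefSeq gene and are given as CPM, counts scaled to a common library size. Of 31637 genes, 23292 passed a filter on low counts and were tested, 13240 with a symbol and 10052 with only a LOC number, the placeholder of RefSeq for a gene without an assigned symbol. A gene was called at an adjusted p under 0.05 (edgeR quasi-likelihood test, Benjamini-Hochberg over all genes tested, two-sided), and 870 genes, 3.74%, were called in NBH PCB400 against NBH Control. Libraries held 38.5 to 52.5 M estimated reads in NBH PCB400 and 42.7 to 64.7 M in NBH Control, and 3 counts, the floor used for a gene not seen, come to 0.0451 to 0.0779 CPM over the series.

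One library stood apart from its group before any test. NBH PCB400 replicate 6 had the fewest reads, 38.5 M, and among the NBH PCB400 brains the lowest CYP1A. Its posterior hox score, the mean log2 deviation of 10 hox genes of the posterior hindbrain and spinal cord from their mean over all libraries, was 1.65, against -1.85 to -1.09 in the other 5 NBH PCB400 brains and 0.1 to 1.89 in NBH Control brains. All results below include this library unless it is said to be left out.

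The libraries also differed in 2 measures that run across many genes. The hox score averaged -0.973 ± 1.32 in NBH PCB400 and 1.3 ± 0.63 in NBH Control (SD, n = 6 each; exact permutation p = 0.0108, two-sided, 0.0432 after adjustment over 4 library measures). Of 24 matched hox genes 10 were tested, all 10 were lower in NBH PCB400 with a median log2 fold change of -1.46, and none was called. Without NBH PCB400 replicate 6, 2 of the 10 were called lower and the median was -3.24. Low scores were not confined to NBH PCB400. Hox scores ran from -2.65 to 1.97 in NBH PCB40 and from -4.07 to 1.08 in SCO Control, another group of the series without PCB126. In whole brains, fewer cells of a type and less RNA per cell cannot be told apart. How much hindbrain and spinal cord each brain sample included was not tested. The summed level of the 10 tested hox genes was 72.5 to 216 CPM in NBH PCB400 against 135 to 273 CPM in NBH Control. Another 8 matched hox genes, hoxa13a and hoxc11a among them, were at 0 in all 12 libraries. The length slope, by which log2 expression of a library relative to the mean of all libraries changes with log2 transcript length, averaged 0.0265 ± 0.111 in NBH PCB400 and -0.086 ± 0.0296 in NBH Control (exact permutation p = 0.0325, adjusted 0.065). When genes were cut by effective length into 5 bins of equal size, lower calls made up 4.08% of the bin with the shortest transcripts and 0.429% of the bin with the longest, whereas higher calls made up 0.73% of the shortest and 2.36% of the longest. Fits with the length slope as a covariate, and with the hox score and a like score of skeletal muscle genes (together the tissue scores) as covariates, are given beside many of the results.

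**Figure D1:**
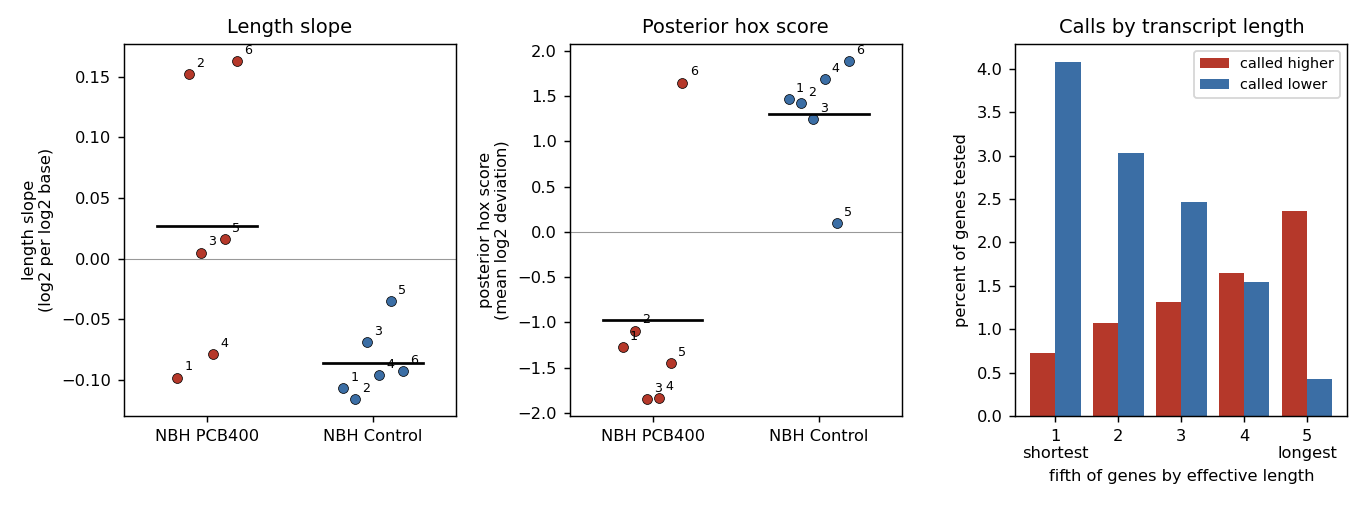
Length slope and posterior hox score of each library (points numbered by replicate, bar at the group mean, NBH PCB400 left of NBH Control) and the percent of genes called in each of 5 bins of effective transcript length. NBH PCB400 replicates 2 and 6 have the highest length slopes, 0.152 and 0.163, and replicate 6 alone among NBH PCB400 brains has a hox score in the range of the NBH Control brains.

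Genes of the AHR pathway that rose were CYP1A, ahrr and ahr2. CYP1A was at 44.5 to 608 CPM (median 436) in NBH PCB400 brains, against 2.72 to 11.8 CPM (median 5.11) in NBH Control brains. The groups did not overlap, and the lowest NBH PCB400 value, that of replicate 6, was far below the 358 CPM of the next. CYP1A was 61.1-fold higher in NBH PCB400 (log2 fold change 5.93, SE 0.74, adjusted p = 3.27e-05), and 6.17 on the log2 scale without replicate 6. Per transcript length, mean CYP1A was 200 TPM (transcript abundance corrected for length) in NBH PCB400 and 2.87 TPM in NBH Control.

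The repressor ahrr was at 0.16 to 1.29 CPM (median 0.875) in NBH PCB400, against 0.025 to 0.412 CPM (median 0.0932) in NBH Control. Replicate 6 of NBH PCB400 and replicate 6 of NBH Control were the only libraries inside the range of the other group. The log2 fold change of ahrr was 2.62 (SE 0.61, adjusted p = 0.0161), and 2.84 without NBH PCB400 replicate 6. With the tissue scores as covariates ahrr was not called (2.54, adjusted p = 0.0769), and DESeq2 gave it no adjusted p-value.

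RefSeq lists 3 receptor genes here under the names ahr2, AHR2 and AHR1, the last 2 as synonyms of LOC numbers with 1 gene between them in the table's order. Only ahr2 was called. It was at 3.05 to 6.28 CPM (median 5.59) in NBH PCB400, against 2.04 to 2.7 CPM (median 2.56) in NBH Control, with no overlap and a log2 fold change of 1.08 (SE 0.17, adjusted p = 0.000561). AHR2 was at 4.28 to 9.14 CPM in NBH PCB400, against 3.33 to 5.99 CPM in NBH Control, and did not pass (log2 fold change 0.45, SE 0.21, adjusted p = 0.21). AHR1 was at 0.664 to 2.23 CPM in NBH PCB400, against 1.22 to 2.58 CPM in NBH Control (log2 fold change -0.03, SE 0.31, adjusted p = 0.976). The difference between the responses of these 3 genes was not tested.

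Of the other members of the AHR lists, only ptges3b, a gene for p23, passed. It was at 168 to 257 CPM in NBH PCB400, against 285 to 394 CPM in NBH Control (log2 fold change -0.66, SE 0.16, adjusted p = 0.0213), without overlap. The call ended with the length slope as a covariate (-0.42), with the tissue scores (-0.71), and without NBH PCB400 replicate 2 (-0.59) or 5 (-0.62). Its paralog ptges3a did not pass with all libraries (log2 fold change -0.33, SE 0.13, adjusted p = 0.146), but was called lower without NBH PCB400 replicate 6 (-0.48, adjusted p = 0.0178). Neither did hsp90ab1 (0.21, SE 0.08, adjusted p = 0.136), arnt (0.52, SE 0.2, 0.136), arnt2 (0.36, SE 0.21, 0.341), nqo1, a quinone reductase (1.59, SE 0.68, 0.171), or wfikkn1, a target of AHR in zebrafish (-0.08, SE 0.41, 0.937). In nqo1 a single NBH PCB400 brain, replicate 5, reached 3.2 CPM, and the other 5 lay between 0.234 and 1.14 CPM. Of the 9 tested receptor and partner genes 2 were thus called higher and 1 lower, and of 4 tested targets 2 were called higher, against 1.43% of all genes tested called higher and 2.31% called lower. The gene ahrr is a member of both lists and is counted in each.

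**Figure D2:**
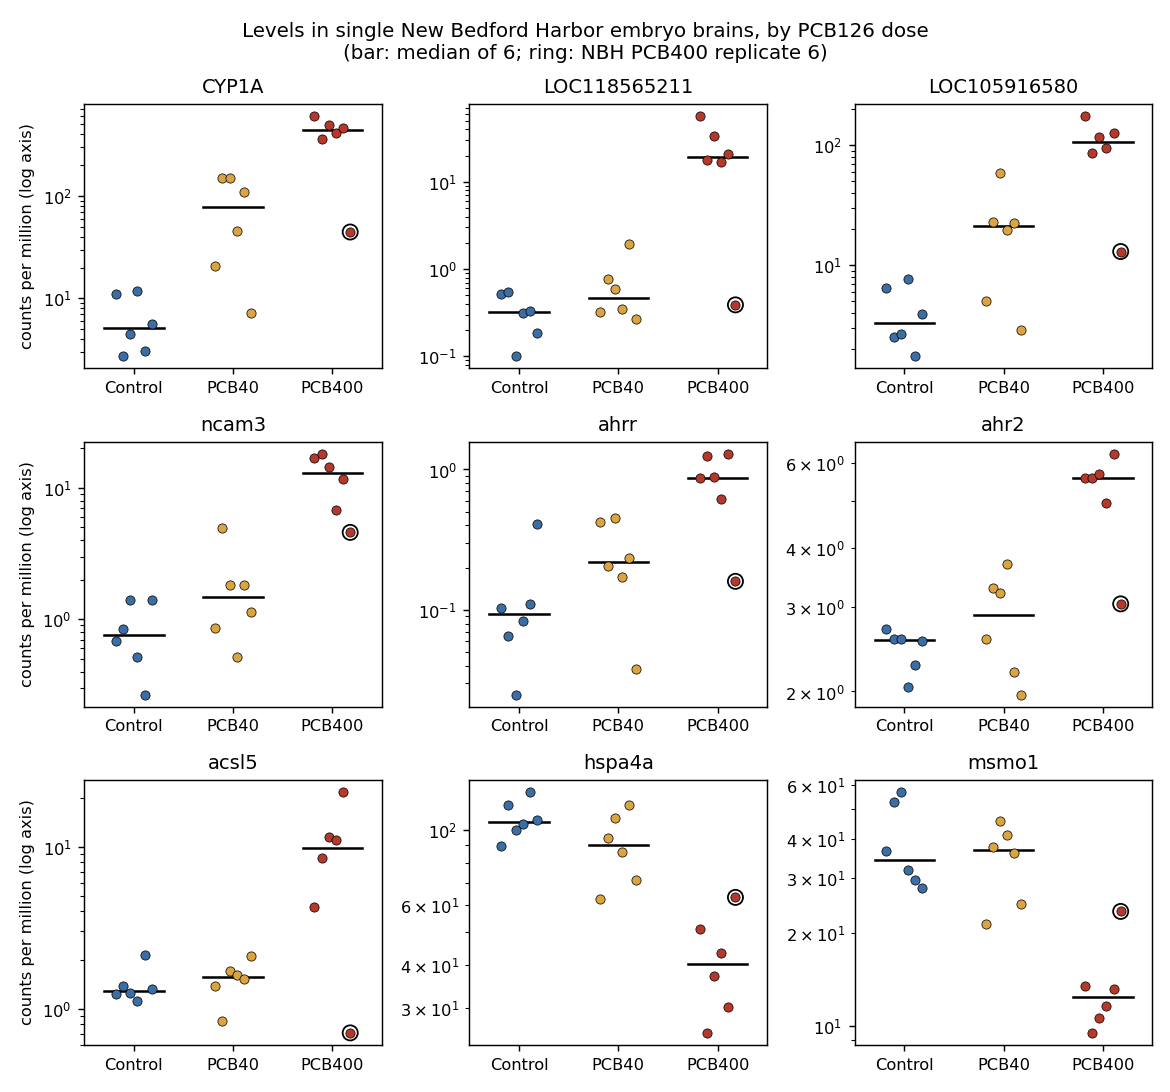
CPM on a log axis in each of 6 brains of NBH Control, NBH PCB40 and NBH PCB400 (points), with the median of each group (bar) and NBH PCB400 replicate 6 ringed. CYP1A had medians of 5.11, 78.0 and 436 CPM in rising order of dose, whereas acsl5 had medians of 1.29, 1.57 and 9.79 CPM.

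Large changes were also seen in genes of little or no annotation. LOC118565211, a protein-coding gene without a symbol, was at 0.389 to 57.2 CPM (median 19.1) in NBH PCB400, against 0.1 to 0.544 CPM (median 0.326) in NBH Control. It was above every control in 5 of 6 NBH PCB400 brains, and replicate 6 lay within the range of the controls. The log2 fold change was 6.18 (SE 0.76, adjusted p = 3.27e-05), and 6.44 without replicate 6. Its neighbour in the table's order, si:dkey-238o13.4, was at 0.16 to 29.6 CPM in NBH PCB400 and 0.0187 to 0.165 CPM in NBH Control, and replicate 6 was again the lowest, at 0.16 CPM (log2 fold change 7, SE 0.9, adjusted p = 3.69e-05).

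A second pair of neighbours was LOC105916580 and LOC105916579. LOC105916580 was at 13 to 176 CPM (median 105) in NBH PCB400, against 1.74 to 7.67 CPM (median 3.29) in NBH Control, with no overlap (log2 fold change 4.61, SE 0.67, adjusted p = 0.000248). LOC105916579 was at 0.16 to 2.12 CPM in NBH PCB400, above every control in 6 of 6 brains. It was at 0 in 5 NBH Control brains and at 0.0206 CPM, under the floor, in the other (adjusted p = 0.000756). Another 2 runs of neighbours, chosen after their values were seen, were called higher together. LOC118566348, LOC118566346 and LOC118566347 had log2 fold changes of 4.31, 2.17 and 2.86. In NBH Control LOC118566348 was at 0 to 0.134 CPM, with a median of 0.0217 CPM, under the floor. NBH PCB400 replicate 6, at 0.115 CPM, lay inside that range, and the LOC118566348 call ended with the tissue scores. LOC105923581, LOC118559127 and LOC118556124 had log2 fold changes of 5.71, 4.80 and 6.64, but with an SD above the mean in NBH PCB400 (20.1 ± 32.9, 3.97 ± 7.28 and 2.7 ± 4.58 CPM).

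Among genes called higher that could be placed, 24 of 297 (8.08%) had a neighbour called higher, and 483 of 19177 genes tested (2.52%) had one. Among genes called lower, 46 of 478 (9.62%) had a neighbour called lower, and 764 of the genes tested (3.98%) had one. Whether reads of neighbouring or similar genes were divided correctly cannot be told from these values.

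Among the 870 genes called in NBH PCB400 against NBH Control, 267 carried only a LOC number. Of them 128 were higher and 139 lower, and 104 changed more than 2-fold. They were called at 2.66% of those tested, against 4.55% of the genes with a symbol. Long non-coding RNA genes among them were called at 1.14% (12 higher and 6 lower of 1577) and protein-coding ones at 2.95%. NBH PCB400 brains lay above every control in 6 of 6 libraries for 32 of the 128 and below every control for 58 of the 139. Over all 23292 genes tested, called or not, 197 (0.846%) lay above every control and 532 (2.28%) below. These counts and the calls come from the same contrast.

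Among the LOC genes called higher, LOC105931525 was at 2.79 to 8.47 CPM (median 7.87) in NBH PCB400, against 0.779 to 2.59 CPM (median 2.01) in NBH Control. Its groups did not overlap, and replicate 6 was far below the other 5 NBH PCB400 brains, at 6.98 to 8.47 CPM (log2 fold change 1.94, SE 0.29, adjusted p = 0.000486). The lncRNA gene LOC118557715, which neighbours zeb2b, was at 3.32 to 4.24 CPM in NBH PCB400 and 0.775 to 2.21 CPM in NBH Control (log2 fold change 1.41, SE 0.26, adjusted p = 0.00372). In LOC118557715, replicate 6, at 4.24 CPM, was the highest of the NBH PCB400 brains.

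Other LOC genes rose in only part of the brains or from a low base. LOC105936893 was at 0.0229 to 8.89 CPM in NBH PCB400, against 0.1 to 0.174 CPM in NBH Control, and replicate 6 was below every control (log2 fold change 4.61, SE 0.71, adjusted p = 0.000561, not called with voom). The lncRNA gene LOC118565650 was at 0.319 to 1.97 CPM in NBH PCB400, against 0 to 0.206 CPM in NBH Control, without overlap (log2 fold change 3.74, SE 0.70, adjusted p = 0.00382), and was not called with the tissue scores. LOC105917072 rose 2.01-fold, at 62.7 to 139 CPM in NBH PCB400 and 49.7 to 68.1 CPM in NBH Control (adjusted p = 0.000627), with only replicate 6 inside the range of the controls.

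LOC105921901 fell to under the floor. It was at 0 to 0.0458 CPM in NBH PCB400, all 6 libraries under the floor, against 0.223 to 1.24 CPM (median 0.578) in NBH Control, with no overlap (adjusted p = 0.00207). The most abundant of the named LOC genes, LOC105922025, was at 3120 to 4180 CPM in NBH PCB400, against 4360 to 8520 CPM in NBH Control, a log2 fold change of -0.80 (SE 0.15, adjusted p = 0.00299). Its mean level was 10800 TPM in NBH PCB400 and 15900 TPM in NBH Control. LOC105925436 was also abundant, at 429 to 610 CPM in NBH PCB400, against 641 to 810 CPM in NBH Control (log2 fold change -0.54, SE 0.11, adjusted p = 0.00606). With the length trend of each library removed its log2 fold change was -0.23, still called.

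**Figure D3:**
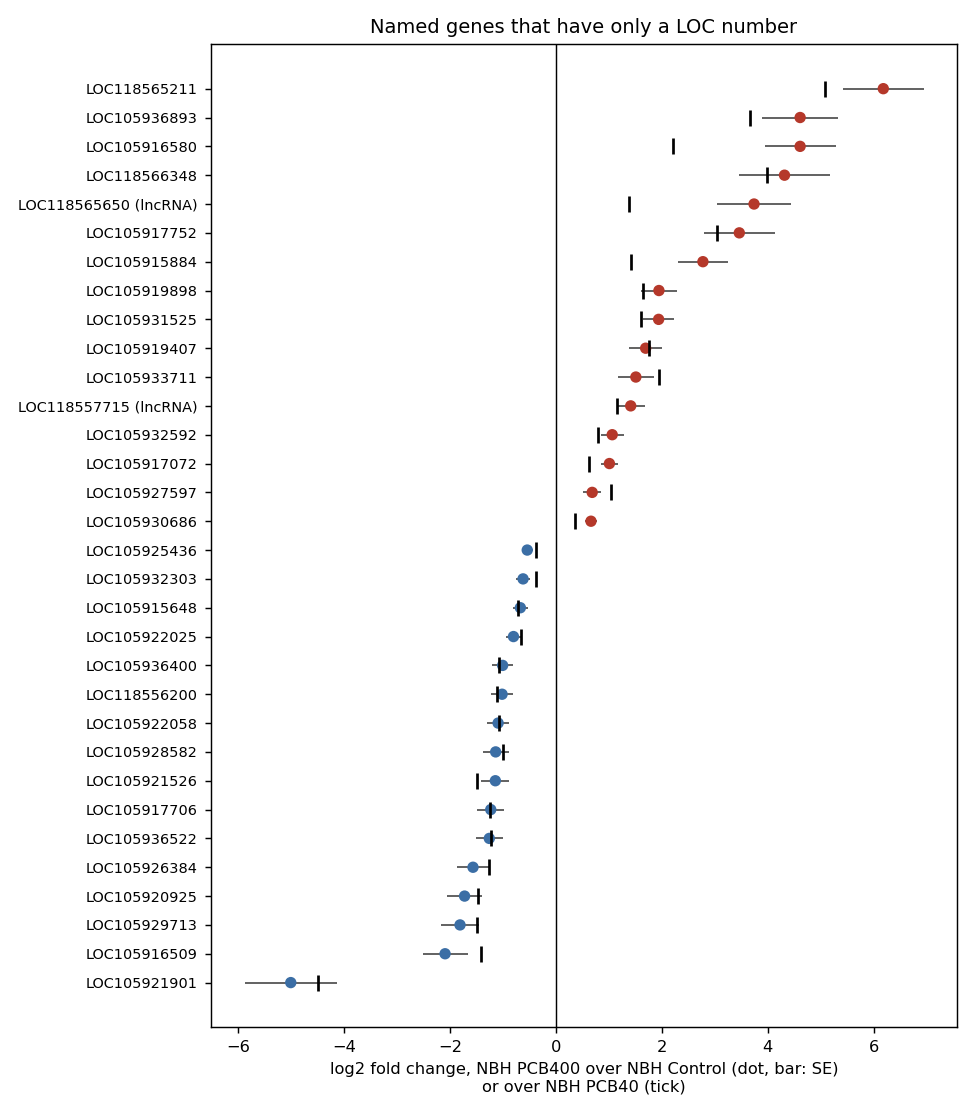
Log2 fold change of the named LOC genes in NBH PCB400 over NBH Control (dot, with its SE) and over NBH PCB40 (tick), from the edgeR fit. LOC105916579 is left out because its controls are at or under the floor. Other genes with a group partly or wholly under the floor are kept, LOC105921901 and LOC118566348 among them. LOC105916580 and the lncRNA gene LOC118565650 have ticks far inside their dots, at 2.21 and 1.38 against 4.61 and 3.74.

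Higher genes with a symbol included ncam3, of the neural cell adhesion molecule family, which was at 4.58 to 18.1 CPM in NBH PCB400, against 0.267 to 1.4 CPM in NBH Control, with no overlap (log2 fold change 3.82, SE 0.51, adjusted p = 7.31e-05). Also apart from every control in 6 of 6 brains were si:ch211-136m16.8 (log2 fold change 3.51, SE 0.49), cd7al (3.22, SE 0.57), the orphan receptor gpr173 (0.52, SE 0.10) and the cyclin ccni (0.41, SE 0.08), with adjusted p of 0.000115, 0.00218, 0.00417 and 0.00574. The anti-Müllerian hormone gene amh was at 0.298 to 1.49 CPM in NBH PCB400, against 0.131 to 0.301 CPM in NBH Control, and replicate 6 fell just inside the controls (log2 fold change 2.19, SE 0.39, adjusted p = 0.00218). Similar in this respect were bco1, which cleaves beta-carotene to retinal (1.81, SE 0.33, adjusted p = 0.00348), sybu, a kinesin adaptor for vesicles in axons (0.89, SE 0.17, adjusted p = 0.00382), and mylipa, a ubiquitin ligase that in mammals targets the LDL receptor (1.3, SE 0.25, adjusted p = 0.0047). In each of these 3 genes 5 of 6 brains lay above every control. With the tissue scores ccni and mylipa were not called.

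Of 22 tested cholesterol synthesis genes 8 were called lower and none higher, with a median log2 fold change of -0.76, against 0.05 over all genes tested. For this list and those that follow, the shares over all genes tested were 1.43% called higher and 2.31% called lower. These shares hold for the fit with all libraries and no covariate. Over all genes, the tissue scores left 41 called higher and 40 lower of 23292, and the length slope 283 higher and 215 lower. Without NBH PCB400 replicate 2, 105 were called higher and 90 lower of 23527. Without replicate 6, 541 were called higher and 818 lower of 23500. Those called included genes from acat2 and hmgcra, whose enzyme is the rate-limiting reductase, through the squalene epoxidase sqlea and CYP51 to the late enzymes tm7sf2, msmo1 and hsd17b7. Among them, acat2, hmgcra and hsd17b7 were chosen after their values were seen. The methylsterol oxidase msmo1 was at 9.48 to 23.4 CPM (median 12.3) in NBH PCB400, against 27.8 to 56.8 CPM (median 34.2) in NBH Control. The groups did not overlap, and the highest NBH PCB400 value, that of replicate 6, lay well above the other 5 (log2 fold change -1.53, SE 0.28, adjusted p = 0.00358). The sterol reductase gene tm7sf2 was at 3.39 to 4.85 CPM in NBH PCB400 and 7.9 to 11.7 CPM in NBH Control (log2 fold change -1.22, SE 0.23, adjusted p = 0.00382). CYP51 was at 3.7 to 6.32 CPM in 5 NBH PCB400 brains and 13.7 CPM in replicate 6, against 12.1 to 17.7 CPM in NBH Control (log2 fold change -1.39, SE 0.28, adjusted p = 0.00635).

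Without NBH PCB400 replicate 6, 11 of the 22 cholesterol genes were called lower, with a median of -0.96. The length slope as a covariate gave 1 higher and 6 lower (median -0.73). Leaving out NBH PCB400 replicate 2 gave 5 lower and none higher (median -0.67). With the tissue scores as covariates, 3 were called lower (median -0.80), and CYP51 (-1.19, adjusted p = 0.0536) and sqlea (-2.31, adjusted p = 0.0699) were among those not called.

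The list of fatty acid synthesis and oxidation also holds the transporter gene slc16a1a and the kinase gene pdk2a. Of its 48 tested genes 4 were called higher and 4 lower, with a median of 0.03. The acyl-CoA synthetase acsl5, which activates long-chain fatty acids, was at 0.71 to 21.7 CPM (median 9.79) in NBH PCB400, against 1.12 to 2.14 CPM (median 1.29) in NBH Control. Of the NBH PCB400 brains 5 were above every control and replicate 6 was below every control (log2 fold change 2.77, SE 0.45, adjusted p = 0.000778, and 3.01 without replicate 6). The monocarboxylate transporter slc16a1a, which carries lactate and ketone bodies, was at 43.6 to 103 CPM in NBH PCB400, against 25.1 to 36.1 CPM in NBH Control, with no overlap (log2 fold change 1.22, SE 0.2, adjusted p = 0.0009).

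The pyruvate dehydrogenase kinase pdk2a (log2 fold change 1.06, SE 0.31, adjusted p = 0.0476) and the carnitine palmitoyltransferase cpt1b (2.02, SE 0.59, adjusted p = 0.0477), both chosen after their values were seen, were also higher. Lower were mid1ip1l, whose mammalian counterpart promotes fatty acid synthesis, and elovl5, an elongase of polyunsaturated fatty acids. Expression of mid1ip1l was 252 to 460 CPM in NBH PCB400, against 625 to 767 CPM in NBH Control, with no overlap (log2 fold change -0.96, SE 0.15, adjusted p = 0.000683). In elovl5, NBH PCB400 replicate 6, at 13.2 CPM, lay within the controls at 8.7 to 18.8 CPM, and the other 5 NBH PCB400 brains were at 3.97 to 7.14 CPM (log2 fold change -1, SE 0.27, adjusted p = 0.0331). The elovl5 call ended in 12 of 22 alternative fits, among them the tissue scores and each fit without 1 of NBH PCB400 replicates 1 to 5. The desaturase fads2 (-1.76, SE 0.51, adjusted p = 0.0459) and cpt2 (-0.41, SE 0.11, adjusted p = 0.0375) were lower too and were likewise chosen after their values were seen. The calls of pdk2a, cpt1b, fads2 and cpt2 were not followed singly through the alternative fits. With the tissue scores as covariates the fatty acid list had 2 members called higher and 1 lower, and the same counts without NBH PCB400 replicate 2.

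Of 95 tested heat shock proteins and cochaperones 13 were called lower and none higher, with a median of -0.20. The Hsp110 gene hspa4a was at 25.3 to 63.3 CPM (median 40.2) in NBH PCB400, against 89.7 to 129 CPM (median 106) in NBH Control, with no overlap (log2 fold change -1.37, SE 0.21, adjusted p = 0.000486). Its paralog hspa4b was at 87.0 to 138 CPM in NBH PCB400, against 153 to 190 CPM in NBH Control (log2 fold change -0.72, SE 0.15, adjusted p = 0.00823). The Hsp90-binding phosphatase ppp5c was at 32.7 to 64.9 CPM in NBH PCB400 and 93.1 to 110 CPM in NBH Control (log2 fold change -0.91, SE 0.16, adjusted p = 0.0019). With the length slope as a covariate 6 members were called lower, with the tissue scores 3, and without NBH PCB400 replicate 2 there were 4. Without NBH PCB400 replicate 6, 20 were called lower and 1 higher, and with the length trend removed 12 lower and 1 higher.

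**Figure D4:**
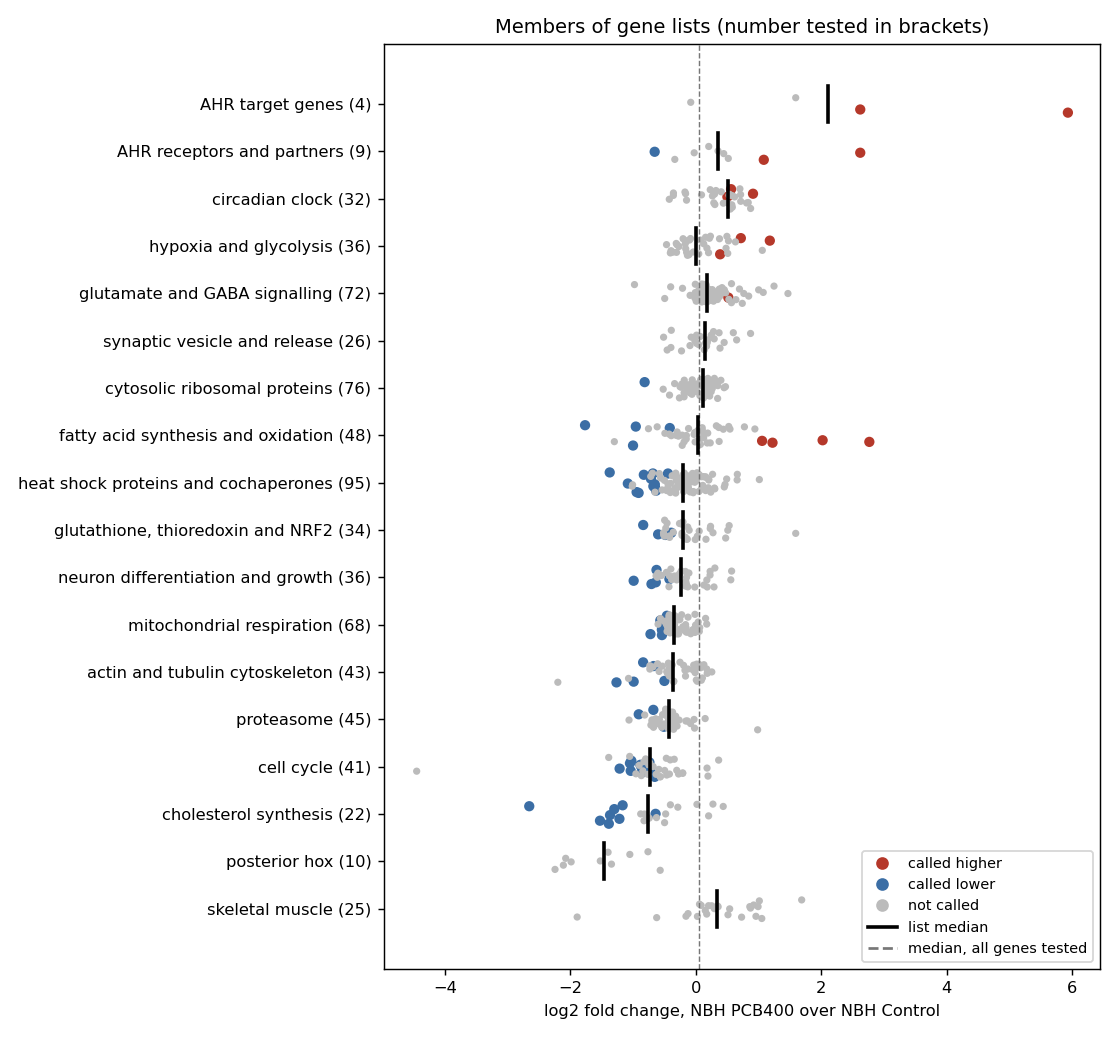
Log2 fold change of each tested member of 18 gene lists in NBH PCB400 over NBH Control (points coloured by call), the median of each list (bar) and the median of all genes tested (dashed line at 0.05). Cholesterol synthesis and cell cycle lie furthest left among the lists with called members, at -0.76 and -0.73.

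Of 41 tested cell cycle genes 10 were called lower and none higher, with a median of -0.73. The chromosomal passenger gene birc5a was at 14.9 to 35.2 CPM (median 27.9) in NBH PCB400, against 33.8 to 83.2 CPM (median 63.6) in NBH Control (log2 fold change -1.21, SE 0.26, adjusted p = 0.0111). NBH PCB400 brains and NBH Control brains overlapped in birc5a by 1 control, replicate 5. The mitotic kinases aurkb (-1.05, SE 0.26, adjusted p = 0.0223) and cdk1 (-1.04, SE 0.26, adjusted p = 0.026) and the replication licensing factor cdc6 (-0.74, SE 0.2, adjusted p = 0.0362) were lower too. The count of called cell cycle genes was 1 with the length slope as a covariate, 0 with the tissue scores and 1 without NBH PCB400 replicate 2, with medians of -0.58, -0.57 and -0.67.

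The list of neuron differentiation and growth had 5 of 36 tested members called lower, with a median of -0.24. The growth cone gene gap43 was at 763 to 1070 CPM in NBH PCB400, against 1310 to 1860 CPM in NBH Control, with no overlap (log2 fold change -0.71, SE 0.18, adjusted p = 0.0248). The tubulin tubb5 (-0.99, SE 0.25, adjusted p = 0.0266), the collapsin response mediator dpysl5a (-0.63, SE 0.16, adjusted p = 0.0258) and the microtubule-associated map1b (-0.42, SE 0.12, adjusted p = 0.0396) were lower. None of the list was called without NBH PCB400 replicate 2 or with the tissue scores, and 1 was with the length slope. Of 10 general markers of brain neurons, all detected, gap43 alone was called, and their summed level was 7410 to 12000 CPM in NBH PCB400 and 11800 to 12900 CPM in NBH Control. No synaptic vesicle gene of 26 was called. Of 72 genes of glutamate and GABA signalling only the metabotropic receptor grm5b was called (0.52, SE 0.15, adjusted p = 0.0474), against 1.43% of all genes tested called higher. The grm5b call ended in 17 of 22 alternative fits, among them voom and the fit without NBH PCB400 replicate 6, and its log2 fold change went to 0.29 with the length trend removed.

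Among cytoskeletal genes, 5 of 43 tested were called lower, with a median of -0.36. The cytoplasmic actin gene actb1 was at 300.0 to 806 CPM in NBH PCB400, against 874 to 1420 CPM in NBH Control, with no overlap (log2 fold change -1.26, SE 0.23, adjusted p = 0.00371). The actin-binding thymosin tmsb2 was at 889 to 1320 CPM in NBH PCB400 and 1490 to 1830 CPM in NBH Control (log2 fold change -0.67, SE 0.16, adjusted p = 0.0159). With the tissue scores as covariates 1 member was called.

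Among genes of nuclear-encoded mitochondrial respiration, of the proteasome and of redox defence, all calls of the fit with all libraries and no covariate were lower. Of 68 respiration genes 9 were called, with a median of -0.34, and 62 of the 68 had a negative log2 fold change. The ATP synthase subunit atp5mpl was at 277 to 353 CPM in NBH PCB400, against 404 to 475 CPM in NBH Control, with no overlap (log2 fold change -0.54, SE 0.13, adjusted p = 0.0205), and went to -0.22 with the length trend removed. The complex I subunits ndufa6, ndufv3 and ndufb5 had log2 fold changes of -0.56, -0.52 and -0.50. When the length slope was a covariate, the list had 1 call and a median of -0.13, and with the length trend removed 4 calls and a median of -0.11. It had no call with the tissue scores or without NBH PCB400 replicate 2.

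Of 45 proteasome genes 3 were called lower, against 2.31% of all genes tested, with a median of -0.43. The activator subunit psme3 was at 73.4 to 131 CPM in NBH PCB400, against 177 to 205 CPM in NBH Control, with no overlap (log2 fold change -0.91, SE 0.17, adjusted p = 0.00382). The small subunits sem1 (-0.51) and psma3 (-0.68) were not called with the length slope as a covariate, nor without NBH PCB400 replicate 2 or 6. Of 34 genes of glutathione, thioredoxin and NRF2 targets 4 were called lower, with a median of -0.21. Among them gclm, the modifier subunit of glutathione synthesis, was at 14.9 to 32.2 CPM in NBH PCB400, against 27.5 to 51.4 CPM in NBH Control (log2 fold change -0.84, SE 0.18, adjusted p = 0.00981), and thioredoxin txn was at 421 to 532 CPM in NBH PCB400, against 685 to 825 CPM in NBH Control (log2 fold change -0.60, SE 0.14, adjusted p = 0.0184). With the tissue scores as covariates none of this list was called, and with the length slope 1 was higher and 2 lower. With the length trend removed, and likewise without NBH PCB400 replicate 6, 1 was higher and 4 lower. Of 26 xenobiotic enzymes and transporters other than CYP1A only porb, the electron donor of cytochromes P450, was called (0.83, SE 0.21, adjusted p = 0.0266), against 1.43% of all genes tested called higher. The porb call ended with the length slope and with the tissue scores.

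The hypoxia and clock lists held calls in the other direction. The prolyl hydroxylases egln3 and egln2, which mark hypoxia-inducible factors for breakdown in the presence of oxygen, were higher. In egln3, NBH PCB400 brains were at 13.1 to 47.3 CPM, against 7.63 to 18 CPM in NBH Control, with 4 of 6 above every control (log2 fold change 1.18, SE 0.22, adjusted p = 0.00348). In egln2 they were at 8.77 to 15.4 CPM, against 5.09 to 8.53 CPM in NBH Control, with no overlap (log2 fold change 0.72, SE 0.17, adjusted p = 0.0161). The list of hypoxia and glycolysis as a whole had 3 of 36 members called higher, against 1.43% of all genes tested, and a median of 0. The third member called was hif1al (0.39, SE 0.11, adjusted p = 0.0457). The hif1al call ended in 17 of 22 alternative fits, RLE scaling and voom among them. The calls of egln2 and hif1al both ended with the length slope, with the tissue scores and without NBH PCB400 replicate 2. Clock genes had a median of 0.51 with 3 of 32 called higher: cry2 (0.51, SE 0.12, adjusted p = 0.0198), tefb (0.91, SE 0.22, adjusted p = 0.0217) and per3 (0.56, SE 0.16, adjusted p = 0.0433). All 3 clock calls ended without NBH PCB400 replicate 2, with the tissue scores and with the length slope. The labels give no hour of sampling.

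Other lower genes below every control in 6 of 6 brains were zc3h15 (log2 fold change -0.48, SE 0.07, adjusted p = 0.000561), si:zfos-943e10.1 (-0.80, SE 0.13, adjusted p = 0.00107), the plasma membrane syntaxin stx4 (-0.81, SE 0.15, adjusted p = 0.00262), chchd4b, for protein import into the mitochondrial intermembrane space (-0.81, SE 0.15, adjusted p = 0.00284), and the chromatin remodeller smarca5 (-0.76, SE 0.15, adjusted p = 0.00515). The Mediator kinase cdk8 was at 21.4 to 26.6 CPM in 5 NBH PCB400 brains and 42.6 CPM in replicate 6, against 39.1 to 57.7 CPM in NBH Control (log2 fold change -0.91, SE 0.16, adjusted p = 0.00207).

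No member was called among 25 skeletal muscle, 7 erythrocyte, 8 pituitary, 16 pigment cell, 18 eye, 18 endothelial, 4 epidermal and 6 liver genes tested, nor among 19 astrocyte, radial glia and progenitor genes. Some of these lists held calls in other fits. Without NBH PCB400 replicate 6, 1 eye gene and 1 gene of the astrocyte list were lower. With the length slope, and likewise with the length trend removed, 1 endothelial gene was lower. With DESeq2 1 pigment cell gene was higher, and 1 gene each of the astrocyte, eye and endothelial lists was lower. Pigment cell genes summed to 71.6 to 102 CPM in NBH PCB400, against 48.8 to 67.5 CPM in NBH Control, without overlap. Of these 16 genes 13 had a positive log2 fold change, with a median of 0.51. Muscle genes summed to 40.3 to 201 CPM in NBH PCB400, against 41 to 128 CPM in NBH Control. Eye genes summed to 8.31 to 12.7 CPM in NBH PCB400, against 10.7 to 16.5 CPM in NBH Control, and the lens gene mipa was at 0 in all 12 libraries. The liver list summed to 6240 to 9740 CPM in NBH PCB400, against 5010 to 15400 CPM in NBH Control. The part of these tissues in the results was not tested apart from the muscle score. Of 20 leukocyte and microglia genes hcls1 was higher (0.85, SE 0.2, adjusted p = 0.0161, not called with the tissue scores) and cd74a lower (-1.79, SE 0.53, adjusted p = 0.0477). In cd74a NBH PCB400 brains were at 0.188 to 0.681 CPM, against 0.601 to 1.14 CPM in 5 NBH Control brains and 4.24 CPM in the other, replicate 4. Without that control the log2 fold change was -1.11 and not called (adjusted p = 0.203). The cd74a call ended in 16 of 22 alternative fits, among them voom, the length slope and the tissue scores. In the leukocyte list 4 genes were called higher without NBH PCB400 replicate 6, and 3 with the length slope. Of 19 tested genes of cartilage and bone the transcription factor gene runx3 was higher, at 1.26 to 2.64 CPM in NBH PCB400 and 0.749 to 1.35 CPM in NBH Control (log2 fold change 0.90, adjusted p = 0.0297). Of 22 oligodendrocyte and myelin genes cd59 was lower (-0.50, SE 0.14, adjusted p = 0.0361), and of 76 ribosomal protein genes rpl5a was lower (-0.81, SE 0.21, adjusted p = 0.0258), against 2.31% of all genes tested called lower. The calls of runx3, cd59 and rpl5a ended in 10, 11 and 7 of 22 alternative fits, the length slope and the tissue scores among them for each.

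Over all genes, 332 were called higher and 538 lower in NBH PCB400, 206 of them by more than 2-fold, and 4809 genes had an unadjusted p under 0.05. NBH PCB400 brains lay above every control in 6 of 6 libraries for 89 of the 332 and below every control for 271 of the 538, against 197 and 532 of all 23292 genes tested. Without NBH PCB400 replicate 6 the count was 1359 (541 higher and 818 lower), of which 763 were among the 870. Without NBH PCB400 replicate 2 it was 195 and without replicate 5 it was 201. With the muscle and hox scores as covariates 81 genes were called, all among the 870, and with the length slope 498 were called, 318 of them among the 870. Of 103 named genes that were called, 45 were called in each alternative fit that gave them an adjusted p, other than the block on replicate numbers, CYP1A, LOC118565211, LOC105916580, ncam3, ahr2, hspa4a, msmo1, acsl5 and actb1 among them, and none changed sign.

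The test of dose set NBH PCB400 against NBH PCB40, 400 and 40 ng/L. It called 822 genes, 3.53% of those tested, 261 higher (1.12%) and 561 lower (2.41%). CYP1A was at 44.5 to 608 CPM (median 436) in NBH PCB400, against 7.14 to 149 CPM (median 78.0) in NBH PCB40, and was called (log2 fold change 2.30, SE 0.63, adjusted p = 0.0368). All NBH PCB400 brains but replicate 6 were above every NBH PCB40 brain. LOC118565211, at a median of 0.466 CPM in NBH PCB40, was higher in NBH PCB400 by 5.09 on the log2 scale (SE 0.71, adjusted p = 0.000672), and si:dkey-238o13.4 by 5.30 (SE 0.80, adjusted p = 0.00165). The gene acsl5 was at 0.71 to 21.7 CPM in NBH PCB400, against 0.845 to 2.12 CPM in NBH PCB40 (log2 fold change 2.64, SE 0.44, adjusted p = 0.0047). The transporter slc16a1a was higher in 6 of 6 NBH PCB400 brains than in any NBH PCB40 brain, at 43.6 to 103 CPM in NBH PCB400 against 20 to 40.3 CPM in NBH PCB40 (log2 fold change 1.24, SE 0.2, adjusted p = 0.00343), and so was LOC105927597, at 13.1 to 17.1 CPM in NBH PCB400 against 5.34 to 9.77 CPM in NBH PCB40 (log2 fold change 1.04, SE 0.17, adjusted p = 0.00343).

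The genes ahrr, amh and bco1 were not called between the 2 exposed groups. In ahrr NBH PCB400 brains were at 0.16 to 1.29 CPM, against 0.0379 to 0.449 CPM in NBH PCB40 (log2 fold change 1.73, SE 0.58, adjusted p = 0.0829). The gene amh was at 0.298 to 1.49 CPM in NBH PCB400, against 0.261 to 0.878 CPM in NBH PCB40 (log2 fold change 0.91, SE 0.36, adjusted p = 0.149), and bco1 was at 2.59 to 13.6 CPM in NBH PCB400, against 2.16 to 8.88 CPM in NBH PCB40 (0.72, SE 0.32, adjusted p = 0.196). By contrast, hspa4a (-1.11, SE 0.21, adjusted p = 0.00749), msmo1 (-1.34, SE 0.28, adjusted p = 0.0122) and the methyltransferase gene carm1 (-0.84, SE 0.15, adjusted p = 0.00677) were called lower in NBH PCB400 than in NBH PCB40.

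Cell cycle genes had 20 of 41 members called lower in NBH PCB400 against NBH PCB40, and cholesterol genes 5 of 22. Of all genes tested, 2.41% were called lower in this comparison. Neither the list counts nor the calls of single genes against NBH PCB40 were followed through the alternative fits. The count of 822 genes became 2594 without NBH PCB40 replicate 1, 97 without NBH PCB40 replicate 5, and 126 when only the 12 libraries compared were fitted. NBH PCB40 and NBH Control were not compared here.

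At the level of single transcripts 338 of 37367 tested were called, 0.905%, with 110 higher and 228 lower. They belonged to 329 genes, and 233 were the only transcript kept for their gene. Transcripts of genes called at gene level made up 314 of the 338, each in the direction of its gene, and 89 belonged to LOC genes. The other 24, 8 higher and 16 lower, belonged to genes that were not called.

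Of those 24, several are given with their share of the gene's counts. The transcript XM_036140152.1 of ulk1b, a kinase that starts autophagy, was at 11.2 ± 5.9 CPM in NBH PCB400 and 3.27 ± 1.71 CPM in NBH Control (SD, n = 6 each), with no overlap (log2 fold change 1.78, SE 0.42, adjusted p = 0.0357). It made up 58.3% ± 21.2 of the expected counts of ulk1b in NBH PCB400, of which replicate 2 reached 98.3%, and 25.5% ± 14 in NBH Control. The transcript XM_036133210.1 of chm, for the Rab escort protein that readies Rab proteins for prenylation, was at 4.8 to 13.7 CPM in NBH PCB400, against 15 to 33.7 CPM in NBH Control, and its share was 17% ± 6.89 in NBH PCB400 and 36.6% ± 8.36 in NBH Control (adjusted p = 0.0158 for its level). The transcript XM_036141017.1 of glrx2, a mitochondrial glutaredoxin, was at 1.18 to 3.25 CPM in NBH PCB400, against 5.58 to 8.96 CPM in NBH Control (log2 fold change -1.73, SE 0.32, adjusted p = 0.0081), with a share of 4.58% ± 1.51 in NBH PCB400 and 10.4% ± 1.48 in NBH Control. In these 3 transcripts neither the levels nor the shares of the groups overlapped. Tested on their shares, ulk1b, chm and glrx2 did not pass (adjusted p = 0.235, 0.0515 and 0.958).

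Also called lower in genes not called were transcripts of cdip1 (XM_036147864.1, log2 fold change -0.70, SE 0.14, adjusted p = 0.0119), of LOC105920757 (XM_012856387.3, -0.89, SE 0.18, adjusted p = 0.0128), of the lysosomal membrane protein gene scarb2a (XM_036144049.1, -0.96, SE 0.23, adjusted p = 0.0387) and of the nucleotidase gene bpnt1 (XM_012880664.3, -0.89, SE 0.21, adjusted p = 0.0397). A transcript of znf704 (XM_012868617.3) was higher, at 62.9 ± 20.8 CPM in NBH PCB400 and 37.2 ± 4.67 CPM in NBH Control (SD, n = 6 each, adjusted p = 0.0391).

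**Figure D5:**
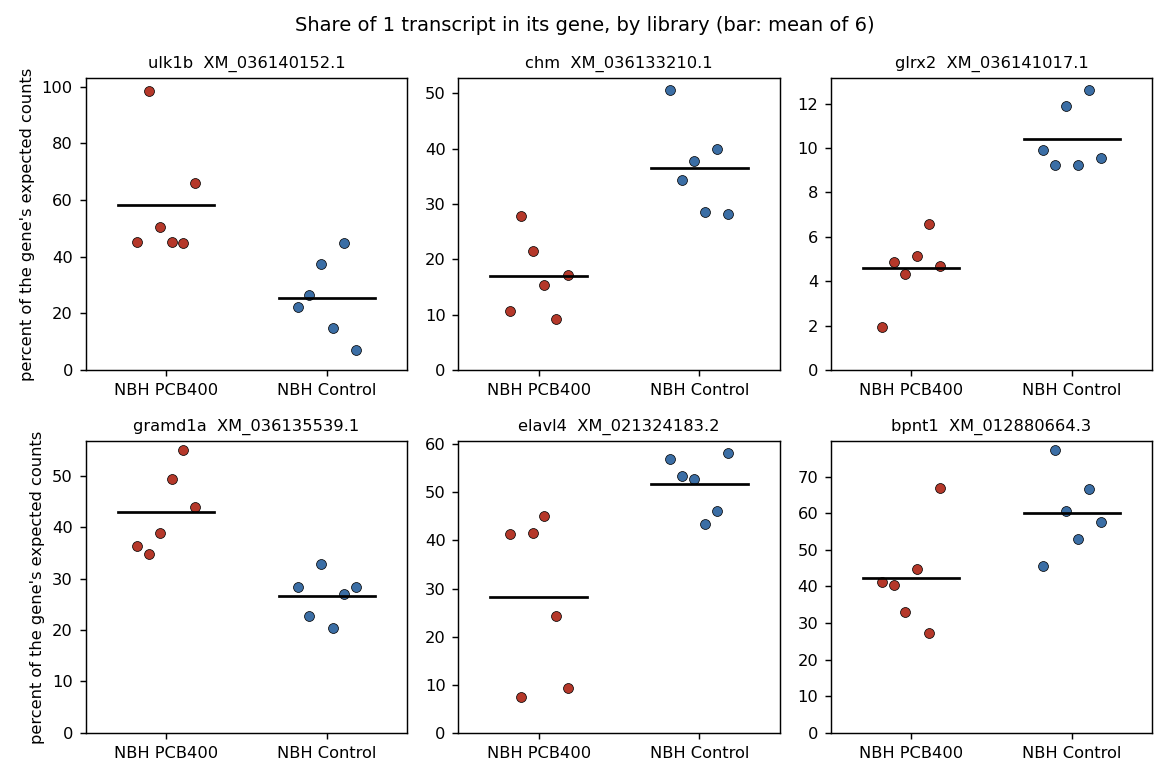
Percent of a gene's expected counts assigned to 1 transcript in each library (points, bar at the mean of 6), NBH PCB400 left of NBH Control. Shares of the ulk1b, chm, glrx2 and gramd1a transcripts do not overlap between the groups, and in bpnt1 NBH PCB400 replicate 6 lies at 67%, within the controls.

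A test of the shares of all transcripts in a gene called 117 of 7518 genes with 2 or more transcripts, 1.56%. Of these, 111 were not called at gene level and 32 had only a LOC number. In 100 of the 117 a transcript was at 0 in every library of 1 group, as it was in 758 of the 7518. The largest shift was 10 percentage points or more in 59 of the 117, and in 8 a transcript's share did not overlap between the groups, as in 48 of the 7518 (0.638%). With only these 12 libraries fitted 5 genes were called, and with voom 6.

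Among the 10 genes with the smallest p was gramd1a, for a protein that carries cholesterol from the plasma membrane to the endoplasmic reticulum. Its transcript XM_036135539.1 made up 34.8% to 55% in NBH PCB400, against 20.4% to 32.9% in NBH Control, with no overlap (adjusted p = 0.00137 for the gene). Its transcript XM_036135543.1 was 0% to 26.1% in NBH PCB400, against 18.2% to 25.6% in NBH Control, with 5 of 6 NBH PCB400 brains below every control. In elavl4, a neuronal RNA-binding protein of the Hu family, XM_021324183.2 made up 7.51% to 45.1% in NBH PCB400, against 43.4% to 58.1% in NBH Control, and XM_021324181.2 made up 28.9% to 57.5% in NBH PCB400, against 22.9% to 30.9% in NBH Control (adjusted p = 0.0045 for the gene). The lowest XM_021324183.2 shares were those of NBH PCB400 replicates 2 and 6, 7.51% and 9.3%, which are also the libraries with the highest length slopes.

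In hook3, a dynein adaptor, XM_036140163.1 made up 6.71% to 39.6% in 4 NBH PCB400 brains and was at 0 in the other 2 and in all 6 NBH Control brains (adjusted p = 0.00137). In fam20b, a kinase that phosphorylates xylose in proteoglycan linkers, XM_021318409.2 made up 31.8% to 41.3% in 3 NBH PCB400 brains and was at 0 in the other 3 and in all 6 NBH Control brains (adjusted p = 0.00488). In cirbpb, a cold-inducible RNA-binding protein, the shifts were small: XR_001166718.3 made up 3.32% ± 0.59 in NBH PCB400 and 2.21% ± 0.337 in NBH Control (SD, n = 6 each), above every control in 5 of 6 brains (adjusted p = 0.00939). Of 2 genes with non-overlapping shares chosen after their values were seen, ubr1, a ubiquitin ligase of the N-degron pathway, had XM_036151129.1 at 34.7% ± 9.09 in NBH PCB400 and 16.2% ± 9.23 in NBH Control. LOC105930817 had XM_012869198.3 at 6.08% ± 1.04 in NBH PCB400 and 15.2% ± 5.04 in NBH Control (SD, n = 6 each). Tested on their shares, ubr1 and LOC105930817 had adjusted p = 0.0492 and 0.0317. Neither gene was called in every fit with 1 library left out. The error of Salmon's division of reads between transcripts of 1 gene is not part of these tests.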

How the data were processed

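RNA of single whole brains was extracted with the Qiagen RNeasy Micro kit, per the labels' protocols. The authors deposited Salmon output for each of 36 libraries, with an estimated count of reads, TPM (abundance scaled by effective length) and lengths for 56244 RefSeq transcripts, and the submitters' processing notes name Salmon 1.3.0 and edgeR 3.30.3. The genome build and Salmon's settings are not given in the sources used here, and no coordinates or sequences are printed. Totals were 38.5 to 66.4 M estimated reads. The deposited estimated counts were summed per gene by the RefSeq gene table (all 56244 transcripts matched, 31637 genes) and rounded. Deposited TPM values served only for mean levels per length.

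Counts were tested with edgeR 4.0.16 in R 4.3.3 (quasi-likelihood, TMM, filterByExpr by group, a mean per group over all 36 libraries), with Benjamini-Hochberg adjustment and a threshold of 0.05. Transcripts were tested likewise, and shares with diffSpliceDGE. Alternatives used limma 3.58.1, DESeq2 1.42.0, other scaling, no filter, length corrections, library covariates, a block on replicate numbers, fewer groups, and each library left out in turn. CPM values are scaled by TMM library sizes. The error of dividing reads among transcripts is not modelled, and the floor of 3 counts covers counting error only.

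The members and gene lists were chosen with earlier results of these data known, and patterns that pulled unrelated genes into some lists were corrected after values were seen. Named genes were the 15 called higher and 15 called lower of smallest p among genes with a symbol and again among LOC genes, up to 4 called members of each list, the measured AHR genes, and the called genes of smallest p in the test of dose; transcripts were named by 2 rules of 10. Called genes outside these rules are marked as picked with their values in view. No 2 libraries held identical values, and replicates of a group correlated at 0.927 to 0.971 over 30 pairs.

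The gene test was checked on simulated counts of 22901 genes. They had the same relative spread for every gene and no length or tissue differences between libraries, unlike the real counts. In that setting the test recovered 28% of 100 genes changed 2-fold and 98% of 100 changed 4-fold, with 0.8% of 127 calls false. For transcript shares in 7186 genes, 88.5% of changed genes were recovered and 18.8% of 218 calls were false.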

Additional observations from a re-analysis of the deposited data

Results flagged for a closer look

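In each group of 6 brains, the highest or lowest value was marked where its gap to the next exceeded Dixon's 95% critical value. Of 230 groups of 6 examined, 31 held such a value. The rule marks about 1 in 20 groups when values are independent and normally spread. Here CPM values were not put on a log scale and the groups share libraries. The count of 31 therefore cannot be set against that rate. NBH PCB400 replicate 6 held 8 of the 31, more than any other library. In NBH PCB400 replicate 1 egln3 was at 47.3 CPM and grm5b at 5.68 CPM. In NBH PCB400 replicate 2 ppp5c was at 32.7 CPM and dnajc30b at 5.24 CPM. In NBH PCB400 replicate 4 tmsb2 was at 1320 CPM. In NBH PCB400 replicate 5 nqo1 was at 3.2 CPM. In NBH PCB400 replicate 6 LOC105931525 was at 2.79 CPM, cdk8 at 42.6 CPM, msmo1 at 23.4 CPM, CYP51 at 13.7 CPM, LOC118556200 at 20.9 CPM, elovl5 at 13.2 CPM and AHR1 at 0.664 CPM. In NBH Control replicate 1 LOC105916579 was at 0.0206 CPM, LOC118565650 at 0.206 CPM and psme3 at 177 CPM. In NBH Control replicate 2 bco1 was at 4.96 CPM, pelp1 at 93.3 CPM, smarca5 at 130 CPM and gap43 at 1860 CPM. In NBH Control replicate 3 LOC105933711 was at 1.78 CPM. In NBH Control replicate 4 cd74a was at 4.24 CPM. In NBH Control replicate 5 acsl5 was at 2.14 CPM, chchd4b at 75.7 CPM and tefb at 225 CPM. In NBH Control replicate 6 LOC105917072 was at 68.1 CPM, egln3 at 18 CPM, ahrr at 0.412 CPM and per3 at 10.3 CPM. The posterior hox score was 1.65 in NBH PCB400 replicate 6, above the rest of its group, and 0.1 in NBH Control replicate 5, below the rest of its group.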

How the results depend on the processing

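The 870 genes called in NBH PCB400 against NBH Control became 498 with the length slope as a covariate (283 higher and 215 lower), 81 with the tissue scores, and 1570 with DESeq2. The hox score differs between the groups in 5 of 6 NBH PCB400 brains, so that covariate overlaps the contrast. The count was 870 with RLE scaling, 636 without a filter, 738 with effective length offsets, 870 with the length trend removed (355 higher and 515 lower, 641 shared), 961 with only these groups fitted (227 higher and 734 lower) and 717 with voom. Leaving out 1 library gave 195 to 1359. By library, the count was 367 without NBH PCB400 replicate 3, and 308, 536 and 378 without NBH Control replicates 2, 3 and 6. The 822 genes called against NBH PCB40 became 371 with the length slope, 467 with the tissue scores, 126 with only these groups fitted and 1592 with DESeq2, and 97 to 2594 with 1 library left out. The 338 transcripts became 197 without a filter, 189 with the length slope, and 69 to 804 with 1 library left out. The 117 genes with changed shares became 5 with only these groups fitted, 45 with transcripts of 5% or more of their gene, 6 with voom, and 48 to 138 with 1 library left out. None of the 117 held in every setting, and 23 held without each library in turn. The cause of these moves was not tested.

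Replicate numbers were not taken to pair embryos: same-numbered libraries correlated in their deviations at -0.02 to 0.26, and 1 library correlated best with its own number. With a replicate block the counts were 246 genes (40 higher and 206 lower) against NBH Control, 0 against NBH PCB40, 0 transcripts and 2 genes for shares.

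Of 103 named calls, 30 held in all 22 settings, another 3 held in every setting that gave an adjusted p, and none changed sign. The tissue scores ended 57, the replicate block 43, leaving out NBH PCB400 replicate 2 ended 33 and replicate 5 ended 30, and the length slope ended 28. Among genes not called, arnt2 turned to -0.1 with the length slope. In wfikkn1 the log2 fold change was 0.02 with the length slope and -0.27 to 0.06 with 1 library left out, positive in 5 cases. In AHR1 it was 0.19 with the length slope and -0.12 to 0.15 with 1 library left out, 0 or higher in 4 cases. On simulated counts with the same relative spread for every gene, 2-fold changes were mostly missed. Real genes differ in their spread, and only 206 of the 870 genes called changed by more than 2-fold.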
